A study of Mus musculus with 2 samples.

Results

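The kinesins and the centromere proteins were examined as 1 gene module in single cells of the early mouse eye. Members were all genes whose symbol is Kif followed by a number, with or without a closing a, b or c, or Cenp followed by a letter, with or without a digit, and 56 of the 27998 genes in the count tables met this rule. They comprised 37 kinesin genes and 19 centromere protein genes. By role they were divided into 11 mitotic kinesins, 2 proteins of the outer kinetochore corona (*Cenpe* and *Cenpf*), 15 inner centromere proteins, 15 transport kinesins, 6 kinesins of the cilium, 5 other kinesins, and *Cenpj* and *Cenpv*. The 11 mitotic kinesins together with *Cenpe* and *Cenpf* are called the 13 mitotic members here. *Kif2b* and *Kif12* had 0 UMIs (unique molecular identifiers, each counting 1 captured RNA molecule) in both libraries.

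Kinesins are motor proteins that walk along microtubules. Some carry vesicles, organelles and ciliary cargo between divisions, and others build the spindle, move chromosomes and part the daughter cells. Centromere proteins mark the chromosome site where the kinetochore forms: the histone variant CENP-A and the constitutive network stay on the centromere through the cycle, whereas the corona proteins CENP-E and CENP-F are added as cells enter mitosis. RNAs of many mitotic genes accumulate as cells pass through G2 into mitosis, and the early eye is a dividing epithelium in which nuclei move between the inner and outer face with the cycle.

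The data were 10x Chromium single-cell libraries of the ocular area of C57BL/6J mouse embryos at the 26-somite stage. There was 1 wild-type (WT) library and 1 *Mab21l1*-null (KO) library, each from a single embryo whose pair of optic areas had been dissected and dissociated with trypsin. *Mab21l1* is a gene needed for lens and eye development, and the design asks how its loss alters the cells of the eye region, above all the lens placode (LP) and the surface ectoderm (SE) around it. With 1 library per genotype no difference between genotypes could be tested, so no p-value is given. Embryo, library and genotype cannot be told apart.

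Of the cells, 1680 in the library labelled WT (41880035 UMIs, median 21037 per cell) and 2404 in that labelled KO (52430844 UMIs, median 18135) were kept. Levels are in UMIs per 1000000 UMIs of the cells concerned (CPM), and a ratio is the CPM of the library labelled KO over that of the library labelled WT. Values in square brackets are exact 95% intervals that cover counting error only. Each cell class was gated on a list of its markers, and 3096 of 4084 cells (75.8%) fell in 1 class, while 400 cells passed more than 1 gate and 588 passed none. The ectoderm-like class held 57 cells in the library labelled WT and 40 in that labelled KO, and its LP-like and SE-like parts held 33 and 24 against 18 and 22. The LP-like markers include *Pax6* and *Six3*, which the study names as lower in the KO, so the LP-like split is not independent of genotype. Of the defining markers, the LP gene *Foxe3* had a UMI in 1 cell and the SE gene *Krt5* in 0 cells.

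The RNA of the targeted gene went against its label over all cells. *Mab21l1* stood at 20.3 CPM in the library labelled WT and 32.5 CPM in that labelled KO, and in optic vesicle-like cells at 34.6 and 58.4 CPM. In ectoderm-like cells it ran the way of the labels, at 84.6 against 38.0 CPM (ratio 0.450 [0.277, 0.706]), and in LP-like cells 132 against 57.8 CPM (0.438 [0.248, 0.733]). The sources used here do not give which part of the gene the null allele removes, so whether these 3′ counts check the allele was not tested, and the libraries are named only by their labels. The libraries shared 15 barcode sequences, and none of the module's ratios moved beyond counting error without those cells. Erythroid RNA in other classes also differed: the erythroid marker list summed to 157 and 350 CPM in ectoderm-like, 175 and 363 CPM in optic vesicle-like and 201 and 445 CPM in mesenchyme-like cells (labelled WT first, then KO). Its part in the results was not tested.

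Over all kept cells the module was level between the libraries. All members together stood at 2372 CPM in the library labelled WT and 2376 CPM in that labelled KO, the mitotic members at 758 and 783, the inner centromere members at 1037 and 1030, and the transport members at 491 and 485. *Cenpa*, the histone H3 variant of the centromere, gave the most UMIs of any member (36901 over both libraries). It was followed by *Cenpf* (29222), the transport motor *Kif5b* (20846), the inner centromere gene *Cenpw* (16211) and *Cenpe* (11328). These totals rank UMI counts, not RNA levels.

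Promoter sequences are shown here for 4 mitotic members, for *Cenpa* and, as a contrast, for transport motors. These genes were picked for display. The kinesins among the 4 mitotic members, *Kif11* (3959 UMIs) and *Kif23* (3036), were not those with the most UMIs (*Kif22* had 4461). RefSeq promoters of GRCm38.p6, from 250 bases before to 50 after the start, were given for 50 of the 56 members and for 27025 genes in all, and the first promoter listed for a gene was used. Each was searched on both strands for the cell cycle genes homology region (CHR, spelled TTTGAA or TTCGAA) and for the CCAAT box. Of 12 mitotic members with a promoter, 10 (83.3%) held a CHR, against 5 of 15 inner centromere members (33.3%), 0 of 11 transport members and 19.4% of all genes. A second promoter listed for the transport member *Kif1a* held a CHR at -44, which these shares leave out. The CCAAT box was found in 66.7% of mitotic, 73.3% of inner centromere and 27.3% of transport members, and in 37.9% of all genes. Both motifs stood together in 58.3% of mitotic members against 7.70% of all genes. Within the window from 100 bases before to 50 after the start, the CHR shares were 66.7% of mitotic, 26.7% of inner centromere and 0% of transport members and 8.68% of all genes, again by first promoter. A match is a description of the letters, not a binding site.

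The stretches printed next run from 120 bases before to 30 after the start, 5′ to 3′ on the gene's own strand, with CHR and CCAAT letters (or their reverse complements) in capitals. *Cenpf* lies at chr1:189688057-189688206 on the minus strand, *Cenpe* at chr3:135212443-135212592 on the plus strand, *Kif11* at chr19:37376262-37376411 on the plus strand, *Kif23* at chr9:61946770-61946919 on the minus strand and *Cenpa* at chr5:30666766-30666915 on the plus strand. The transport motors shown for contrast are *Kif5c* at chr2:49619166-49619315 (plus), *Kif1b* at chr4:149307704-149307853 (minus) and *Kif21a* at chr15:91049922-91050071 (minus).
Cenpf: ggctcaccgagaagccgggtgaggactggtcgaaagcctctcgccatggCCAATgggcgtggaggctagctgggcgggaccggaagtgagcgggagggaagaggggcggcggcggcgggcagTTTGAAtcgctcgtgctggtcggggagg
Cenpe: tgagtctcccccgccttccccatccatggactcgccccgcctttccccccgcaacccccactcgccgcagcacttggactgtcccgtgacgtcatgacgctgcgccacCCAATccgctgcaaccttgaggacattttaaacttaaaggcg
Kif11: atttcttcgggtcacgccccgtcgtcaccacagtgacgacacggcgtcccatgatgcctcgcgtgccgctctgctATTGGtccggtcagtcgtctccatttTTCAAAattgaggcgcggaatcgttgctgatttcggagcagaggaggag
Kif23: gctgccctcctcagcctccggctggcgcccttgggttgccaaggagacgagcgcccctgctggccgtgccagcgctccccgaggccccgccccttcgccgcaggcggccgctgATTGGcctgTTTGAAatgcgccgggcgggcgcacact
Cenpa: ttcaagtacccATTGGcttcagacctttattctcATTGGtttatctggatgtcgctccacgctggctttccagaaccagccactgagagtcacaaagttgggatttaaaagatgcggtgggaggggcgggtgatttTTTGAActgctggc
Kif5c: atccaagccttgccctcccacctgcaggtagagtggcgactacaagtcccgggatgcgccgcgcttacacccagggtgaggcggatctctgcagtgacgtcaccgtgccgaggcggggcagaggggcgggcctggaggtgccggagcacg
Kif1b: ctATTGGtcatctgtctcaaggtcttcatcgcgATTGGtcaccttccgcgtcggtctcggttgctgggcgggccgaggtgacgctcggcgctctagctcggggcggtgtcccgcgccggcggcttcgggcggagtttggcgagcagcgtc
Kif21a: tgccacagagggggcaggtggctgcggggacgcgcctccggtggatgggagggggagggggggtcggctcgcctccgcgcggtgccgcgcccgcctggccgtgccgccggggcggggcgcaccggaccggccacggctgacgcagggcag

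In these stretches *Cenpf*, *Kif11*, *Kif23* and *Cenpa* carried a CHR close to the start, beginning at positions 3, -19, 3 and 17 with the start site as position 1. *Cenpe* had a CCAAT box at -12 and no CHR. *Kif1b* had 2 CCAAT boxes, while *Kif5c* and *Kif21a* had neither motif. *Kif18a* was the other mitotic member with no CHR in its window. Among mitotic members not printed, the CHR of *Kif2c* began at -103 and that of *Kif14* at -228. *Kif4*, *Kif15*, *Kif18b*, *Kif20b* and *Kif22* had one in the window from 100 bases before to 50 after the start.

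The mitotic members separated from the transport members by cell cycle range. Each cell was thinned to 6000 UMIs, and cells with at least 12 UMIs of 12 G2/M genes that include no member (*Ccnb1*, *Cdc20*, *Plk1*, *Top2a* and others) were called G2M-high. Cells that were not G2M-high and had at least 9 UMIs of 16 replication genes were called S-high, and the rest low. These are ranges of a continuous score, and 610 cells lay within 1 UMI of the G2M limit. Counted were members with at least 300 UMIs over all cells. Of 12 mitotic members counted, 10 were at least 1.5-fold higher in G2M-high than in low cells in both libraries, against 2 of 15 inner centromere members and 0 of 12 transport members. Among all 10319 genes tested, 1.28% met this rule. No member was at least 1.5-fold lower in both libraries, where 2.31% of all genes were.

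*Cenpf*, a large corona protein, stood at 448 CPM in G2M-high, 156 CPM in S-high and 191 CPM in low cells of the library labelled WT. Its G2M-high level was 2.35 times its low level in the library labelled WT and 2.54 times in that labelled KO. For *Cenpe*, the kinesin that moves chromosomes from the kinetochore, these were 1.89 and 2.17. *Kif18a*, which damps chromosome oscillation at the spindle equator, gave 2.31 and 2.06, and the chromokinesin *Kif22* 2.24 and 1.97. *Kif14* (2.11 and 1.85), *Kif23* (2.08 and 2.28), *Kif20a* (1.95 and 1.84) and *Kif20b* (1.88 and 1.80) all act in the central spindle or in cytokinesis. The microtubule depolymerase *Kif2c* gave 2.0 and 2.05, and *Kif11*, the motor that pushes the spindle poles apart, 1.68 and 1.97. The mitotic members that missed the 1.5-fold rule were the chromokinesin *Kif4* (1.48 and 1.58) and *Kif15* (1.20 and 1.23), a spindle motor that can stand in for KIF11. Both of their promoters hold a CHR. *Kif18b*, the remaining mitotic kinesin, had 243 UMIs and was not counted.

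The inner centromere members that met the rule were *Cenpl* (2.25 and 2.04) and *Cenpi* (1.63 and 1.60), both parts of the constitutive centromere network. *Cenpa* was 1.41 and 1.45 times higher. *Kif5b*, the ubiquitous conventional kinesin, was 1.14 and 1.13 times higher, and of the members of every role 0 were at least 1.5-fold higher in S-high cells in both libraries, where 0.572% of all genes were.

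Along the G2/M score the 4 groups of members differed in their slope. Between cells with 0 to 3 UMIs of the G2/M genes and cells with 24 to 43, the summed mitotic kinesins went from 141 to 625 CPM in the library labelled WT and from 117 to 593 CPM in that labelled KO. *Cenpe* and *Cenpf* together went from 105 to 890 and from 90.1 to 972 CPM. The inner centromere members went from 738 to 1315 and from 693 to 1311 CPM, and the transport members from 439 to 519 and from 444 to 529 CPM. *Cenpe* and *Cenpf* had the steepest curve and the transport members the flattest in both libraries.

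**Figure D1:**
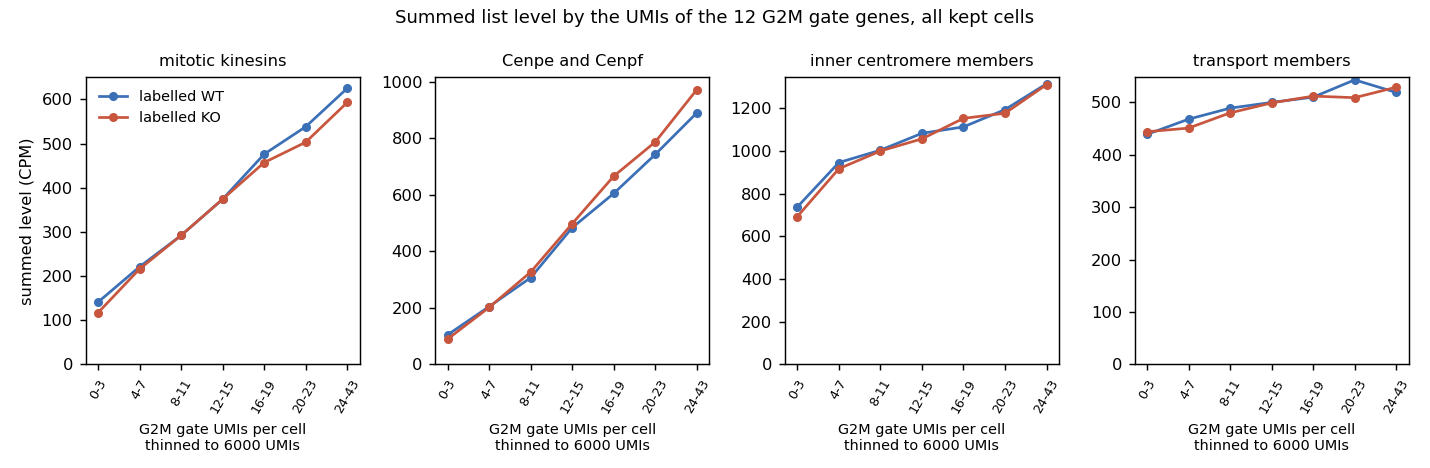
Summed level (CPM) of 4 groups of members against the UMIs of 12 G2/M genes per cell thinned to 6000 UMIs, for the libraries labelled WT and KO. Cenpe and Cenpf are at 105 CPM in the lowest and 890 CPM in the highest bin of the library labelled WT, and the transport members at 439 and 519 CPM.

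Transport kinesins were the members that differed most between classes. For 42 members with at least 300 UMIs, the level in a class was compared with that in all other classes of the same library, and a member was counted where it was at least 1.5-fold higher or lower in both libraries. The 300 UMIs were counted over all compared cells of both libraries, and a count of 0 was set to 3 UMIs. Calls in small classes can therefore rest on few UMIs. In optic vesicle-like cells (482 and 759 cells), the precursors of retina and pigment epithelium, 5 members were higher and 1 was lower, against 7.74% and 10.6% of all genes. *Kif1a*, a carrier of synaptic vesicle precursors, stood there at 21.0 and 25 CPM and in mesenchyme-like cells at 1.79 and 1.70 CPM. *Kif21a*, a motor that also restrains microtubule growth, stood at 79.2 and 72.3 CPM in optic vesicle-like cells and at 8.85 and 10.0 CPM in mesenchyme-like cells. Over the other classes these were 5.44 and 6.57-fold higher for *Kif1a*, and 3.80 and 3.25-fold for *Kif21a*. The other members higher there were *Kif3a* (1.89 and 1.61), a subunit of the motor that builds cilia, *Cenpk* (1.93 and 1.51) and *Cenpv* (1.84 and 1.65).

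Neural ectoderm-like cells (78 and 98) had the same neural pair higher, *Kif21a* (2.34 and 2.94) and *Kif1a* (1.54 and 1.83), among 2 members higher and 2 lower where all genes gave 3.40% and 9.57%. Of the optic vesicle-gated cells, 239 fell in neural ectoderm clusters when all cells were clustered, so these 2 neural classes are not fully apart. Mesenchyme-like cells (494 and 762) had *Kif5c* (2.11 and 1.64) and *Kif21b* (1.86 and 1.64) higher, and *Kif1a* (0.110 and 0.0842) and *Kif21a* (0.135 and 0.156) lower, where 9.77% of all genes were higher and 9.77% lower. *Kif5c*, a conventional kinesin best known from neurons, was thus at 81.8 and 64.5 CPM in mesenchyme-like cells but at 44.3 and 43.9 CPM in optic vesicle-like and 1.66 and 2.49 CPM in endothelium-like cells.

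In ectoderm-like cells 3 of the 42 members were higher, all of them transport members, where 8.05% of all genes were. They were *Kif5c* (92.0 and 110 CPM, 1.81 and 2.38-fold), the endosomal motor *Kif16b* (14.7 and 13.7 CPM, 2.94 and 2.39-fold) and *Kif1c* (1.65 and 1.63-fold). For *Kif1c* the interval in the library labelled KO was [0.885, 2.76] and reached below 1. The 3 lower members of the 42 were *Cenpi*, *Cenpv* and *Kif26a*, where 7.43% of all genes were lower. In the library labelled KO the interval of each of these lower members reached above 1. In that labelled WT those of *Cenpi* [0.0730, 1.06] and *Kif26a* [0.303, 1.18] did so too. Both parts of the ectoderm had *Kif5c* and *Kif16b* higher, LP-like cells with 2 members higher and 6 lower (7.39% and 6.68% of all genes) and SE-like cells with 2 higher and 2 lower (9.88% and 7.05%). Among the 6 lower in LP-like cells, *Cenpj* and *Cenpv* summed to only 6 and 3 UMIs. In neural crest-like cells (26 and 27) *Kif21b* stood at 46.8 and 59.5 CPM, 5.59 and 7.63-fold over the other classes, and 7 members were lower, where 6.83% and 10.2% of all genes were higher and lower. Those 7 were the mitotic *Kif14*, *Kif4* and *Kif22*, the transport kinesins *Kif5c* and *Kif16b*, *Cenpk* and *Kif26a*. Of the 11 mitotic kinesins, only 2 had at least 30 UMIs in neural crest-like cells over both libraries.

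Endothelium-like cells (63 and 100) had 3 members higher and 11 lower, where 13.1% and 19.5% of all genes were. *Kif26a*, an unusual kinesin without motor activity, was at 66.4 and 50.6 CPM against 10.9 and 10.7 CPM in mesenchyme-like cells. *Kif1c* (2.06 and 1.70) and *Kif21b* (1.82 and 1.88) were the others, and *Cenpf* was among the lower ones (0.623 and 0.518). In erythroid-like cells 34 of 42 members were lower, but so were 70.9% of all genes, and 0 were higher, where 3.61% were. Globins took 34.2% and 34.9% of the UMIs there, and outside globins the mitotic members stood at 504 and 522 CPM. *Kif5b* stood between 166 and 265 CPM in the library labelled WT in every named class except erythroid-like cells, where it was at 82.7 CPM, and macrophage-like cells, of which there were only 17 and 7.

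**Figure D2:**
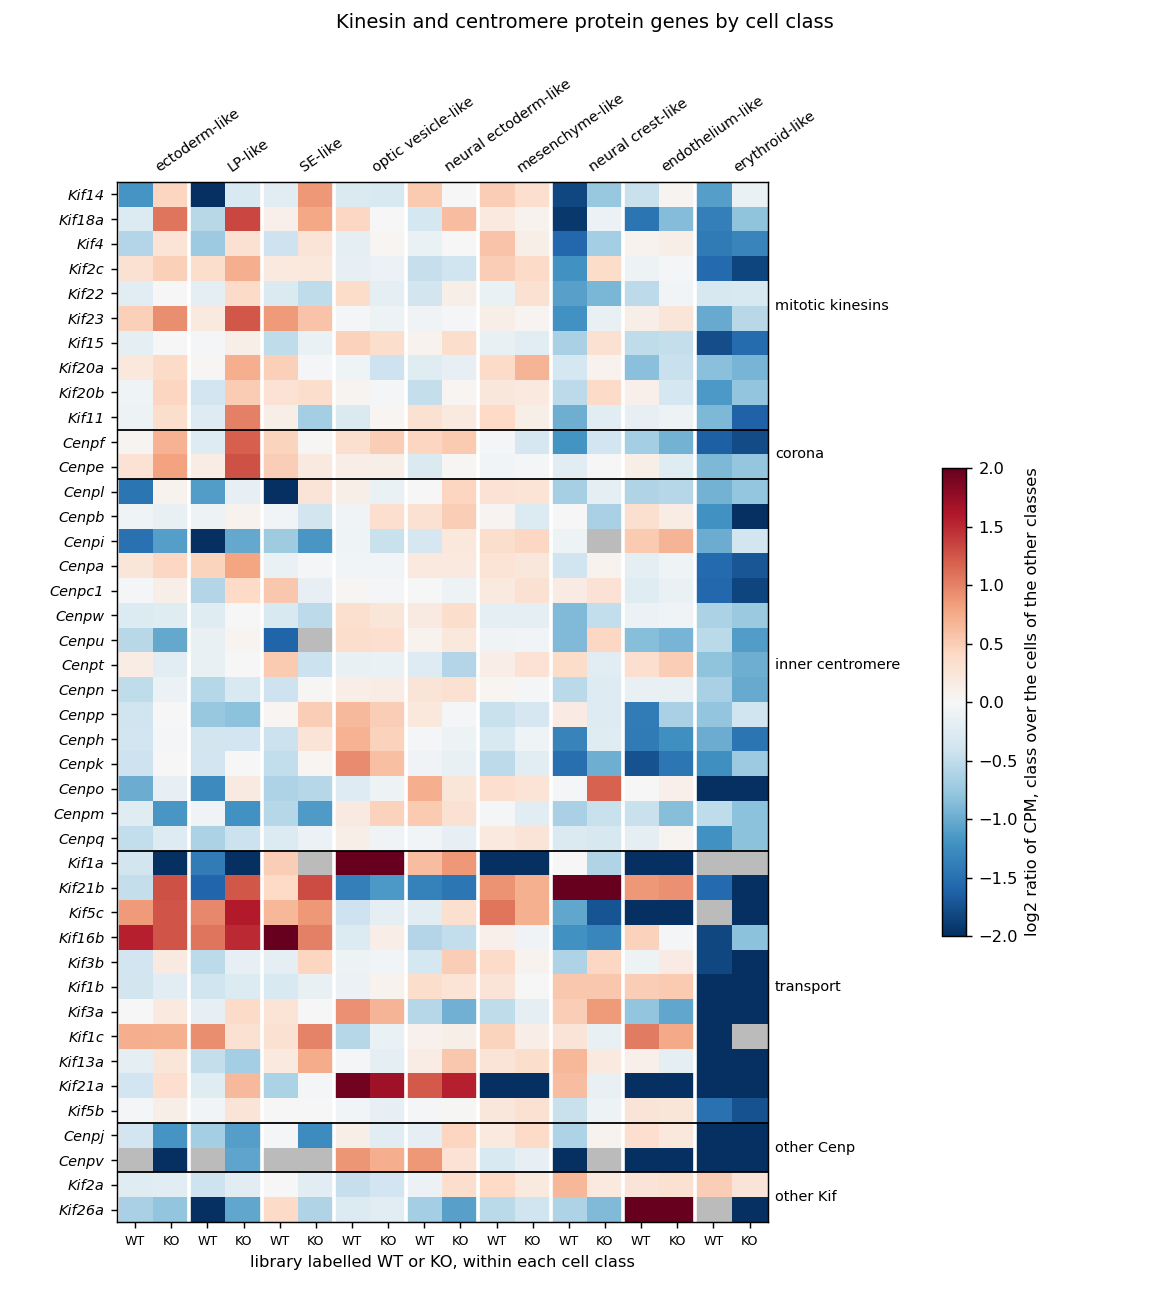
Heat map of the log2 ratio of the CPM of a class over that of the other classes, for the members counted (vertical) in each class and library (horizontal). The color scale ends at 2 and -2, gray marks 0 UMIs, and *Kif1a* and *Kif21a* are red in the 2 neural classes and blue in mesenchyme-like cells, whereas *Kif5b* is pale outside erythroid-like cells.

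Between genotypes, the mitotic members were higher in ectoderm-like cells of the library labelled KO. They summed to 842 UMIs (774 CPM) in the library labelled WT and 750 UMIs (1141 CPM) in that labelled KO, a ratio of 1.47 [1.33, 1.63]. All 11 mitotic members with at least 30 UMIs in the class had a ratio above 1, from 1.01 to 2.17, where 50.7% of all 6284 genes did. Of them 3 reached 1.5-fold, where 7.19% of all genes were at least 1.5-fold higher and 8.02% lower. Their median log2 ratio was 0.43, against 0.01 over all genes.

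*Cenpf* led this group by UMIs, at 292 CPM in the library labelled WT and 485 CPM in that labelled KO (1.66 [1.42, 1.95]). *Kif18a* went from 14.7 to 31.9 CPM (2.17 [1.08, 4.45]) and *Kif4* from 23.0 to 41.1 CPM (1.79 [0.998, 3.21]), an interval that reaches 1. *Cenpe* stood at 143 and 213 CPM (1.49 [1.18, 1.89]) and *Kif11* at 38.6 and 53.2 CPM (1.38). The exons of *Kif18a* and *Kif4* overlap exons of *Mettl15* and *Pdzd11* on the other strand, and whether counting used strand is not given in the sources used here, so their counts could include such reads.

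The inner centromere and transport members of ectoderm-like cells differed less. The inner centromere members were at 949 and 1039 CPM (1.09 [0.993, 1.21]), and *Cenpa* at 435 and 523 CPM (1.20 [1.04, 1.39]). *Cenpm*, another member of the constitutive network, stood apart at 65.3 and 36.5 CPM (71 and 24 UMIs, 0.559 [0.337, 0.899]). In optic vesicle-like cells *Cenpm* had the opposite direction, at 81.8 and 94.2 CPM (1.15 [1.07, 1.24]). The transport members summed to 512 and 598 CPM (1.17 [1.02, 1.33]), and 1 of the 6 counted reached 1.5-fold, where 7.19% of all genes did, *Kif21a* at 36.8 and 59.3 CPM (1.61 [1.01, 2.57]).

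Within the ectoderm the difference lay in LP-like cells. The mitotic members stood there at 680 CPM (453 UMIs in 33 cells) in the library labelled WT and 1514 CPM (471 UMIs in 18 cells) in that labelled KO, a ratio of 2.23 [1.95, 2.54]. All 9 mitotic members counted had a ratio above 1, from 1.11 to 2.92, where 50% of 4289 genes did, and 5 reached 1.5-fold, where 9.56% of all genes were higher and 12.5% lower. The median log2 ratio was 0.79 against 0.00 over all genes. In SE-like cells the mitotic members stood at 924 and 806 CPM (0.873 [0.745, 1.02]), and 0 of 5 counted had a ratio above 1, where 53.3% of all genes did. None of the 14 members of any role counted in SE-like cells was at least 1.5-fold higher or lower, where 8.91% of all genes were higher and 8.91% lower.

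*Cenpf* carried the largest part of the LP-like difference. It had 156 UMIs (234 CPM) in the library labelled WT and 213 UMIs (685 CPM) in that labelled KO, a ratio of 2.92 [2.37, 3.62]. *Cenpe* had 86 and 92 UMIs, 129 and 296 CPM (2.29 [1.69, 3.11]). Both corona genes were near the same level or lower in SE-like cells, *Cenpf* at 382 and 306 CPM (0.801 [0.621, 1.03]) and *Cenpe* at 164 and 139 CPM (0.846). Without *Cenpf* the LP-like ratio of the mitotic members was 1.86.

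The 7 mitotic kinesins counted in LP-like cells had ratios above 1 with fewer UMIs each. *Kif11* stood at 34.5 and 83.6 CPM (23 and 26 UMIs, 2.42 [1.33, 4.44]). *Kif23*, the cytokinesis motor of the central spindle, stood at 36.0 and 73.9 CPM (24 and 23 UMIs, 2.05 [1.11, 3.80]), but its ratio was 0.917 in cells thinned to 6000 UMIs. The intervals of the others reached below 1 or their ratios were under 1.5: *Kif20b* had 1.73 [0.925, 3.20], *Kif22* 1.48, *Kif20a* 1.46, *Kif2c* 1.20 and *Kif15* 1.11. Summed, the mitotic kinesins were at 317 and 533 CPM (1.68 [1.37, 2.07]) and the corona pair at 363 and 980 CPM (2.70 [2.27, 3.21]). The corona pair thus had the larger ratio, and the difference between the 2 lists was not tested. The intervals leave out the spread between cells, and the top cell gave 16.7% (labelled WT) and 14.6% (labelled KO) of the *Cenpf* UMIs.

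The other members of LP-like cells moved less. The inner centromere members were at 1007 and 1202 CPM (1.19 [1.05, 1.36]), and the one with the most UMIs was *Cenpa* at 498 and 675 CPM (332 and 210 UMIs, 1.35 [1.13, 1.61]). Without *Cenpa* their ratio was 1.04. With *Cenpa* and in thinned cells, a single random draw with fewer UMIs, it was 0.990. *Cenpw* (1.06), *Cenpq* (1.07), *Cenpk* (1.16), *Cenpb* (1.02) and *Cenph* (0.896) were near 1, and *Cenpm* was at 73.5 and 35.4 CPM (49 and 11 UMIs, 0.481 [0.225, 0.937]). The transport members were at 500 and 665 CPM (1.33 [1.11, 1.59]). All 5 counted were above 1, and the interval of each reached below 1: *Kif21a* stood at 40.5 and 73.9 CPM (1.82 [0.999, 3.30]), *Kif3a* had 1.53 [0.734, 3.11], *Kif5c* 1.40 [0.927, 2.08], *Kif5b* 1.22 [0.918, 1.61] and *Kif1b* 1.07.

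The remaining members were too sparse for ratios in LP-like cells. The 6 cilium kinesins summed to 9 and 2 UMIs, the other kinesins to 20 and 11, and *Cenpj* and *Cenpv* together to 6 and 3. At this depth 3 UMIs correspond to 4.50 CPM in the library labelled WT and 9.64 CPM in that labelled KO.

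**Figure D3:**
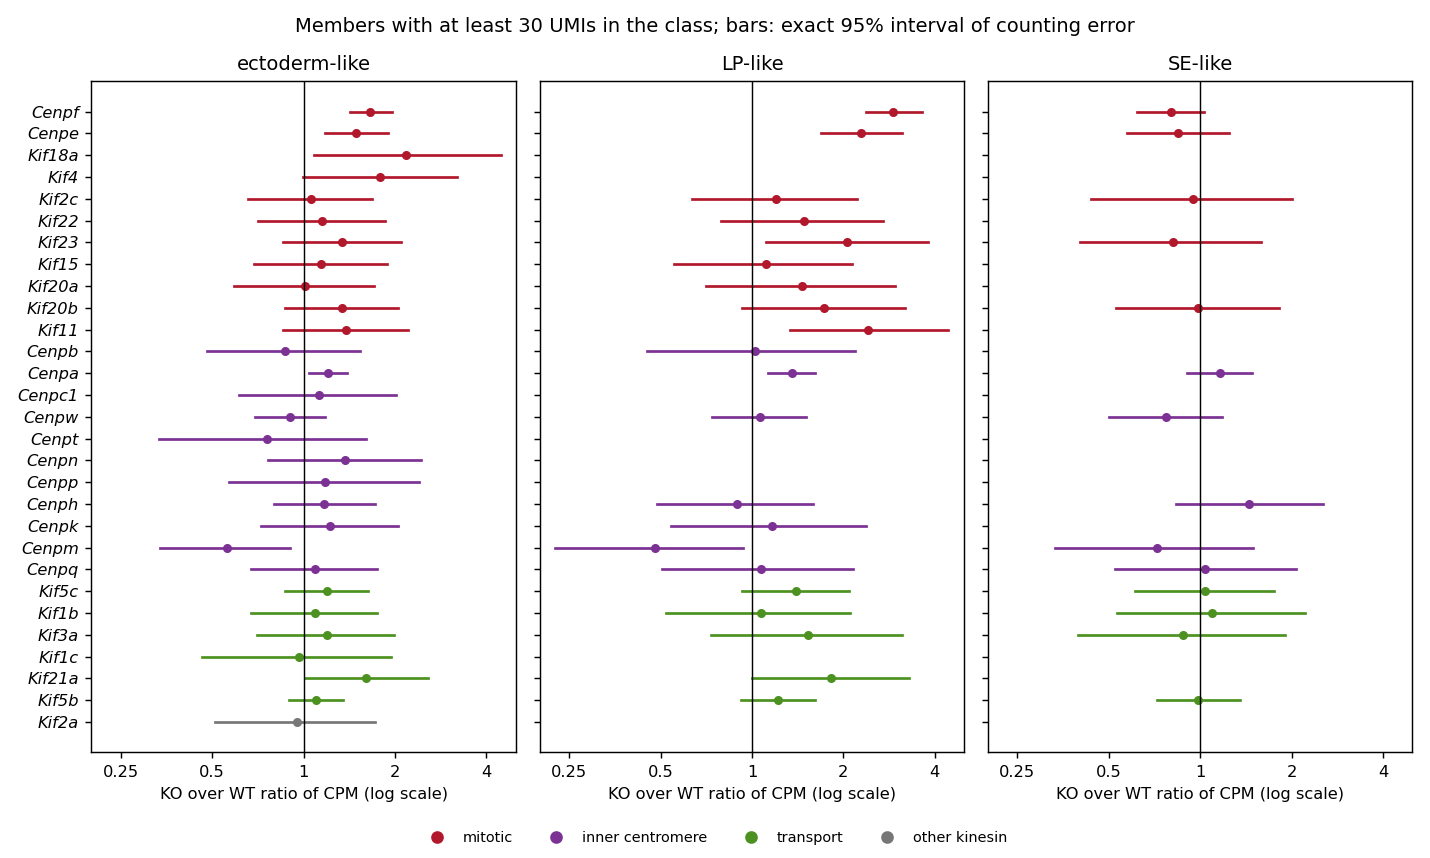
Ratio (log scale) of the library labelled KO over that labelled WT for members with at least 30 UMIs, in panels for ectoderm-like, LP-like and SE-like cells, with exact 95% counting intervals and colors by role. In LP-like cells *Cenpf* (2.92), *Kif11* (2.42) and *Cenpe* (2.29) lie farthest above 1 and *Cenpm* (0.481) lies below it.

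The ratios were also computed under a second split of the ectoderm, added after the data had been seen. The ectoderm cluster was split by clustering without the genes that the study names as lower, which gave 29 and 25 LP-like and 32 and 22 SE-like cells. Both clusters were still named by the LP and SE markers, *Pax6* and *Six3* among them, so the naming is not independent of genotype. The mitotic members were then at 546 and 1281 CPM in LP-like cells (2.35 [2.06, 2.68]) and at 875 and 717 CPM in SE-like cells (0.819 [0.703, 0.952]). *Cenpf* stood at 178 and 577 CPM in the LP-like cells (3.24 [2.60, 4.05]). Markers of other classes also differed between the LP-like cells of the libraries. The 6 optic vesicle markers summed to 97.6 and 193 CPM there, the 8 neural ectoderm markers to 13.5 and 45 CPM and the 9 erythroid markers to 149 and 328 CPM, while the 8 macrophage markers were at 3.00 and 0 CPM. The part of these cells or RNAs in the mitotic ratio was not tested.

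The shares of cells in the cell cycle ranges also differed between the libraries in LP-like cells. In LP-like cells 13 of 33 (39.4% [22.9, 57.9]) were G2M-high in the library labelled WT, against 14 of 18 (77.8% [52.4, 93.6]) in that labelled KO, and the S-high shares were 36.4% and 11.1%. S-high was called only in cells that were not G2M-high, and 615 of all kept cells passed both limits. The S-high share is therefore bound to the G2M-high share and is not a second difference. Over all ectoderm-like cells 38.6% [26.0, 52.4] and 57.5% [40.9, 73.0] were G2M-high, and in SE-like cells 37.5% and 40.9%. The ranges were set on the UMIs of the gate genes, so the levels of these genes are not separate from the shares. The G2/M list was at 1739 and 2925 CPM in LP-like cells (1.68) and the replication list at 1502 and 858 CPM (0.571 [0.497, 0.654]). From these same libraries the study already names *Ube2c* of the G2/M list as higher in KO ectoderm cells. It names *Mcm5* and *Rrm2* of the replication list as lower. Neither these lists nor the shares set on them are therefore an independent reading.

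The ratios were also computed inside each range. Among G2M-high LP-like cells the mitotic members were at 1264 and 1886 CPM, a ratio of 1.49 [1.29, 1.73]. The gate genes themselves had 1.15 [1.04, 1.28] there and 1.68 over all LP-like cells. Because these cells were selected on the gate genes, their ratio inside the range cannot serve as a yardstick for the mitotic members. *Cenpe* and *Cenpf* were at 719 and 1217 CPM (1.69 [1.40, 2.06]), the mitotic kinesins at 545 and 669 CPM (1.23 [0.965, 1.56]), and the inner centromere members had 0.967 [0.824, 1.13]. Among cells that were not G2M-high the ratio of the mitotic members was 1.59 [1.13, 2.22] for the LP-like and 0.641 [0.461, 0.885] for the SE-like class. In all ectoderm-like cells, not split, it was 1.30 [0.929, 1.82] in the S-high and 0.731 [0.516, 1.02] in the low range, and both intervals held 1. In G2M-high ectoderm-like cells the ratio was 1.23 [1.10, 1.38], and in G2M-high SE-like cells 0.929 [0.775, 1.11]. The G2M-high ratio was also above 1 in neural crest-like (1.92 [1.35, 2.79], 2 and 7 cells), erythroid-like (1.28 [1.06, 1.54]) and neural ectoderm-like cells (1.14 [1.04, 1.24]). It was 1.01 [0.981, 1.04] in optic vesicle-like, 0.948 [0.912, 0.985] in mesenchyme-like and 0.815 [0.724, 0.917] in endothelium-like cells. The G2M-high range holds 13 and 14 LP-like cells (labelled WT first, then KO), the S-high range 12 and 2, and the low range 8 and 2. The ratio of 1.59 thus rests on very few cells of the library labelled KO, and cells are not replicates of a genotype.

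Across single cells the LP-like difference was not that of 1 cell. The median of the mitotic members over LP-like cells was 6.00 UMIs per 10000 for the library labelled WT and 15.5 for that labelled KO, with quartiles of 1.73 and 10.3 against 6.87 and 22.8. The ranges, 0 to 21.0 and 0.624 to 26.5, overlapped over most of their length. The cell with the most mitotic UMIs gave 12.4% and 12.5% of the total. In SE-like cells the medians were 5.07 and 5.87, and in mesenchyme-like cells 6.47 and 6.08.

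**Figure D4:**
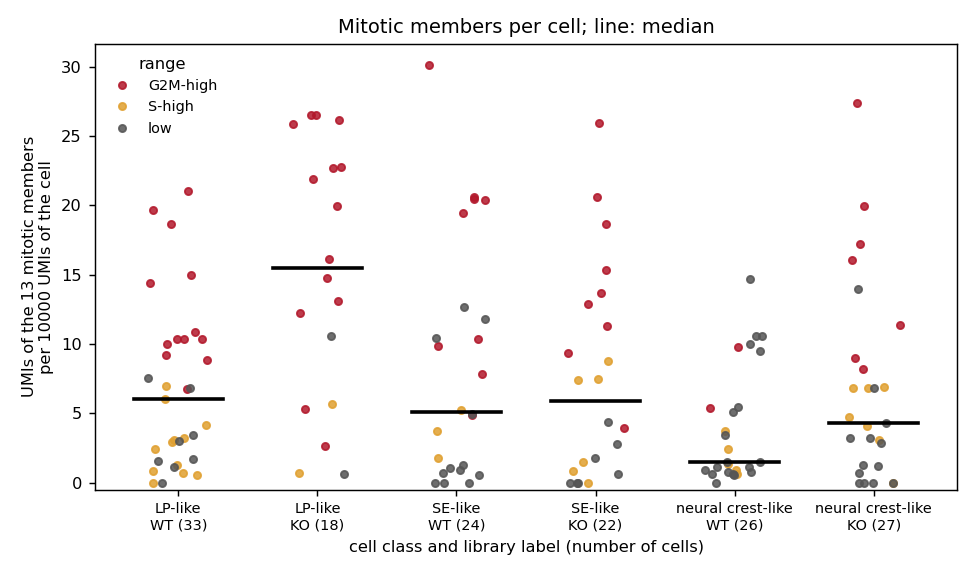
UMIs of the 13 mitotic members per 10000 UMIs of the cell (vertical) for LP-like, SE-like and neural crest-like cells of each library. Each point is a cell colored by its cell cycle range, and lines are medians. The LP-like medians are 6.00 in the library labelled WT and 15.5 in that labelled KO, and the SE-like medians 5.07 and 5.87.

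Genes that work beside the members were read from lists that hold no member, chosen with earlier results of these data known. From these same libraries the study already names *Prc1* and *Tpx2* of the spindle list among genes higher in KO ectoderm cells. It also names *Spc25* and *Knstrn* of the kinetochore list, and the members *Cenpe* and *Cenpf*. The values of these genes are therefore not an independent reading. Of 19 other spindle genes, 14 were counted in LP-like cells and all 14 were above 1, with 8 at least 1.5-fold higher and 0 lower, where 50% of all genes were above 1, 9.56% higher and 12.5% lower. Their sum stood at 1177 and 2025 CPM (1.72 [1.55, 1.91]). *Prc1*, the microtubule bundler of the central spindle on which KIF4 works, stood at 69.0 and 206 CPM (2.98 [2.01, 4.45]). *Incenp*, of the chromosomal passenger complex, had 2.68, the spindle pole gene *Aspm* 2.28 and the spindle assembly factor *Tpx2* 2.18. Of 32 other kinetochore genes 21 were counted, 16 above 1, 7 at least 1.5-fold higher and 1 lower against the same shares of all genes, with a sum of 1840 and 2256 CPM (1.23 [1.12, 1.35]). The CENP-A chaperone *Hjurp* was among the higher ones (2.37) and *Ska1*, of the complex that couples kinetochores to microtubules, was the lower one (0.476). The 22 other transport genes, dynein, dynactin and kinesin light chains among them, summed to 2311 and 2622 CPM (1.13 [1.04, 1.24]) with 12 counted. In SE-like cells the spindle list had a ratio of 1.02.

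Neural crest-like cells were the other class with a mitotic ratio above 1.5. The mitotic members were at 407 CPM (26 cells, library labelled WT) and 681 CPM (27 cells, library labelled KO) (1.67 [1.38, 2.03]), 4 of 4 counted were above 1 and 3 reached 1.5-fold, where 57.5% of all genes were above 1, 11.3% at least 1.5-fold higher and 6.08% lower. *Cenpf* stood at 124 and 233 CPM (1.88 [1.33, 2.68]) and *Cenpa* at 281 and 414 CPM (1.47 [1.16, 1.88]). Of these cells, 2 of 26 and 7 of 27 were G2M-high, and the replication list was also higher (1.34). Markers of other classes also differed between these cells of the libraries, the optic vesicle list at 32.8 and 92.8 CPM, the mesenchyme list at 253 and 350 CPM and the erythroid list at 211 and 459 CPM. A list of 9 immediate early and heat shock genes stood at 86.6 and 167 CPM (1.92 [1.27, 2.95]). Their part in the mitotic ratio was not tested. With 1 more marker asked of each cell the mitotic ratio was 1.19, and in the neural crest cluster it was 1.22.

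Outside the ectoderm-like and neural crest-like classes the mitotic ratios compared lay closer to 1. The mitotic ratio was 1.03 [1.0, 1.05] in optic vesicle-like cells (795 and 817 CPM), with 5 of 13 members above 1 where 53.4% of all genes were. In mesenchyme-like cells it was 0.961 [0.932, 0.991] (781 and 750 CPM), with 3 of 13 above 1 where 51.2% were. Endothelium-like cells had 0.950 [0.877, 1.03] and 8 of 12 above 1 (51.0% of all genes), and erythroid-like cells 1.03 [0.904, 1.16] and 6 of 10 above 1 (48.1%). Neural ectoderm-like cells were higher, at 782 and 912 CPM (1.17 [1.08, 1.25]), with 8 of 12 above 1 (55.6%) and 44.9% and 57.1% of cells G2M-high. Few members of any role reached 1.5-fold in these classes. In optic vesicle-like cells 0 of 48 counted were at least 1.5-fold higher and 1 lower, where 2.55% and 2.02% of all genes were. In mesenchyme-like cells these were 0 and 1 of 47 (2.81% and 2.86% of all genes), and in endothelium-like cells 0 and 0 of 37 (4.39% and 5.36%). Erythroid-like cells had 0 higher and 2 lower of 24 (4.48% and 5.93%), and neural ectoderm-like cells 2 higher and 1 lower of 38 (6.12% and 3.70%).

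The single members of the optic vesicle-like class moved in both directions by small amounts that its UMI counts resolve. *Cenpf* was at 315 and 354 CPM (1.12 [1.08, 1.17]) and *Kif11* at 37.0 and 42.4 CPM (1.15 [1.03, 1.28]). *Kif18a* was at 20.3 and 15.4 CPM (0.760 [0.645, 0.897]), *Kif20a* at 31.7 and 25.2 CPM (0.796 [0.699, 0.907]) and *Kif22* at 55.9 and 45.7 CPM (0.818 [0.742, 0.901]). Its mitotic kinesins summed gave 0.939 [0.905, 0.975] and its corona pair 1.10, so the near-level sum joined opposite directions.

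**Figure D5:**
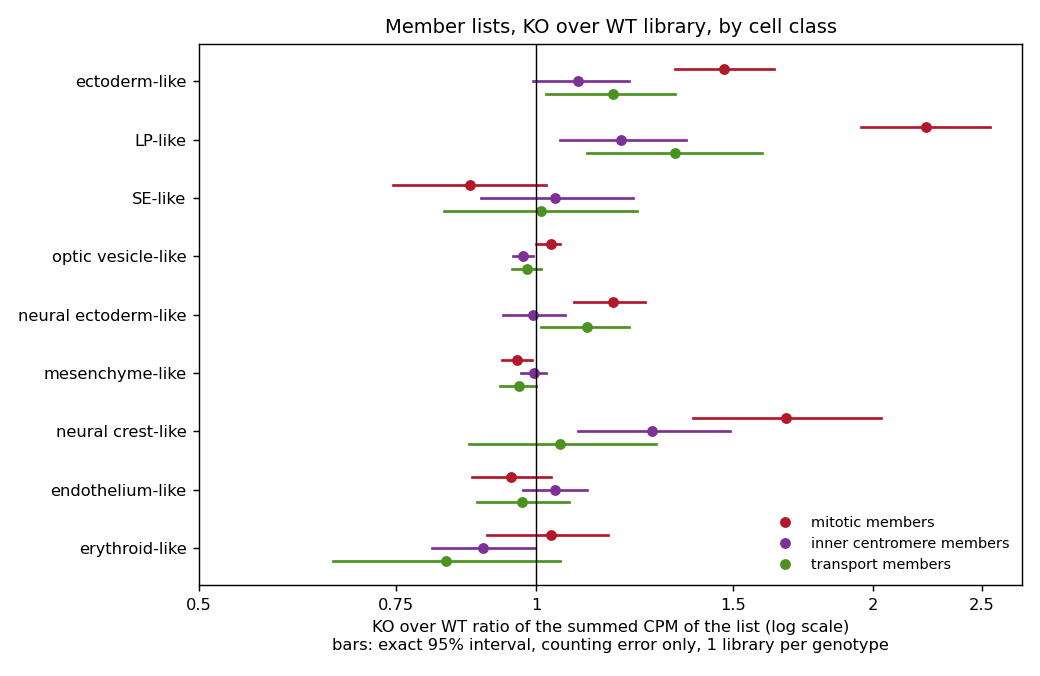
Ratio (log scale) of the library labelled KO over that labelled WT for the mitotic, inner centromere and transport members in each class, with exact 95% counting intervals. The mitotic members lie at 2.23 in LP-like and 1.67 in neural crest-like cells and between 0.873 and 1.47 in the other classes shown.

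*Cenpv* was lower in the library labelled KO over all kept cells and in optic vesicle-like, neural ectoderm-like and mesenchyme-like cells. CENP-V is a centromere-associated protein that also binds microtubules, and its gene lies at chr11:62524946-62539261 on the minus strand of GRCm38. It stood at 12.2 CPM (510 UMIs) in the library labelled WT and 7.67 CPM (402 UMIs) in that labelled KO, a ratio of 0.630 [0.551, 0.719], and was the only member of 52 counted over all cells to be at least 1.5-fold lower, where 3.31% of all genes were, while 0 members were as much higher, where 1.93% were. The ratio was 0.556 [0.449, 0.686] in optic vesicle-like, 0.410 [0.206, 0.779] in neural ectoderm-like and 0.633 [0.460, 0.869] in mesenchyme-like cells, and 0.734 [0.584, 0.921] in cells without a class. In the ectoderm-like cells it had 0 and 1 UMIs. *Cenpj* and *Cenpv* together had 5 and 6 UMIs in neural crest-like cells, and likewise 5 and 6 in erythroid-like cells. The 1 lower member of 52 was a smaller share than that of all genes. *Cenpj*, the centriole gene grouped with *Cenpv* by name, stood over all kept cells at 13.3 and 14.6 CPM (1.09 [0.979, 1.22]). Among transport members *Kif5c* in mesenchyme-like cells was at 81.8 and 64.5 CPM (0.789 [0.714, 0.872]) and *Kif1a* in optic vesicle-like cells at 21.0 and 25 CPM (1.19 [1.03, 1.38]).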

How the data were processed

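Single-cell UMI counts per gene and cell barcode were analyzed as deposited. Per the labels and the study's methods, the authors made these raw counts with Cell Ranger on mm10/GRCm38 and combined the libraries with its aggr program, which can subsample reads. The annotation release and the use of strand are not given in the sources used here. The files hold 1745 and 2458 barcodes, of which 1680 and 2404 passed limits of 1500 to 8000 genes per cell and 5% mitochondrial UMIs (together the 4084 cells of the study's methods).

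Cells were gated by the number of detected markers of each class, with limits set after the marker counts were seen, and ectoderm-like cells were split by whether LP or SE marker UMIs were more numerous. Of these, 9 cells had LP and SE marker UMIs within 1 of each other. Cells past more than 1 gate stayed unassigned, and no doublet caller was run. Counts were summed per library and class and given as CPM with exact Poisson intervals. Ratios carry exact conditional binomial intervals and shares exact binomial (Clopper-Pearson) ones. A member was counted in a class with at least 30 UMIs over both libraries, and counts of members above 1 or past 1.5-fold are read against the share of all genes tested by the same rule in that class. Named members were those with the most UMIs in a class and then those with the largest ratios. The members, lists and comparisons were chosen with earlier results of these data known. Inner centromere genes that the tables carry under other symbols, such as *Apitd1* and *Stra13*, were in the kinetochore list.

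Phase ranges were set on cells thinned to 6000 UMIs. Thinning was a single random draw, and LP-like cells had medians of 18222 and 16886 UMIs before it. Ratios in thinned cells therefore rest on fewer UMIs and carry more counting error, and no second draw was made. Clusters for the alternatives came from 2000 variable genes, 40 principal components and Leiden resolution 0.6 (ectoderm: 10 components, resolution 0.2). All 56 members matched the GENCODE annotation of GRCm38 by identifier. Of them, 17 have exons overlapping an exon on the other strand and 4 on the same strand. Scripts were tested on simulated data. Python 3.11.15, numpy 2.4.6, scipy 1.17.1, pandas 2.3.3, scanpy 1.11.5 and matplotlib 3.10.9 were used.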

Additional observations from a re-analysis of the deposited data

Results flagged for a closer look

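Some lists had ratios of the library labelled KO over that labelled WT on opposite sides of 1 in different classes, with counting intervals that excluded 1 in both. None of these differences was tested, since each genotype has 1 library. The mitotic members had 2.23 in LP-like, 1.67 in neural crest-like, 1.47 in ectoderm-like, 1.17 in neural ectoderm-like and 1.03 in optic vesicle-like cells, each against 0.961 in mesenchyme-like cells. The optic vesicle-like value was 0.965 without *Cenpf*, so it turns on 1 gene. The inner centromere members had 1.19 in LP-like and 1.27 in neural crest-like cells, each against 0.973 in optic vesicle-like and 0.897 in erythroid-like cells. The LP-like value was 0.990 in thinned cells and 1.04 without *Cenpa*. Both neural crest-like values lay nearer to 1 with 1 marker more per class and by cluster. The mitotic value of mesenchyme-like cells, on which each mitotic contrast rests, lay nearer to 1 with cells past more than 1 gate assigned.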

How the results depend on the processing

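With 1 embryo and library per genotype, counting intervals say nothing of the spread between embryos, and small classes (18 to 57 ectoderm-like, LP-like and SE-like cells per library) limit what single members show. No paired analysis was possible because each genotype has 1 library. No replicate could be left out for the same reason.

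Of the ratios, levels and differences of shares compared for member lists, 374 stayed within the counting interval, 27 moved beyond it and 4 changed direction. A change of direction was called only where the first interval excluded no change. A value that crossed 1 inside an interval spanning 1 was therefore called as staying. Of the ratios for single members, taken with counts of members past the fold and promoter motif shares, 2392 stayed, 95 moved and 3 changed direction. Counts of members were called as staying within 1.5-fold of the first count. Median-of-ratios scaling, no mitochondrial limit, removal of shared barcodes and other G2M limits for the shares moved no list beyond its interval. The causes of the following changes were not tested. With all deposited barcodes the mitotic ratio was 1.32 in ectoderm-like and 1.93 in LP-like cells. With 1 marker more per class it was 1.33 in neural ectoderm-like and 1.19 in neural crest-like cells, and the inner centromere ratio was 1.02 in neural crest-like and 0.869 in SE-like cells. With cells past more than 1 gate assigned, the mitotic ratio of mesenchyme-like cells was 0.997. Without the member with the most UMIs, the mitotic ratio was 1.86 in LP-like cells and turned to 0.965 in optic vesicle-like cells, the inner centromere ratio was 1.04 in LP-like, 0.925 in optic vesicle-like and 0.962 in mesenchyme-like cells, and the transport ratio was 0.911 in mesenchyme-like cells. In thinned cells the inner centromere ratio turned to 0.990 in LP-like cells and was 0.878 in neural ectoderm-like and 1.20 in endothelium-like cells, and the transport ratio turned to 0.985 in neural ectoderm-like cells. *Cenpa* in ectoderm-like cells turned to 0.997 and *Kif23* in LP-like cells to 0.917 after thinning. As a mean over cells the mitotic ratio of optic vesicle-like cells was 1.05. By cluster, the transport ratio turned to 0.976 and that of *Kif21a* to 0.883 in neural ectoderm-like cells, and the mitotic and inner centromere ratios of neural crest-like cells were 1.22 and 1.05. Among cells that were not G2M-high, the mitotic ratio of ectoderm-like cells (0.954) was 1.20 with a limit 1 UMI higher and 1.34 with all UMIs used, and with all UMIs that of LP-like cells was 2.25 and that of SE-like cells 0.903. Per UMIs outside globins, erythroid-like cells stood at 504 and 522 CPM for mitotic, 756 and 685 for inner centromere and 164 and 137 for transport members in the libraries labelled WT and KO. The last 2 settings, the second split of the ectoderm and the removal of shared barcodes were chosen after seeing the data.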

Other observations

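The remaining members were sparse. The cilium kinesins *Kif7*, which acts in Hedgehog signalling at the cilium tip, and *Kif24* stood over all cells at 3.70 and 4.15 CPM in the library labelled WT and at 3.47 and 4.48 CPM in that labelled KO. *Kif6*, *Kif9* and *Kif27* had 22 and 28, 23 and 24, and 22 and 31 UMIs in the libraries labelled WT and KO. *Kif26b* had 48 of its 59 UMIs in the library labelled WT, and 61 of its 75 in that labelled KO, in mesenchyme-like cells, where it stood at 5.06 and 4.94 CPM. *Kif19a* had 9 and 1 UMIs, and *Kif17* 14 and 7. *Kif2a*, a microtubule depolymerase, was at 35.8 and 32.8 CPM (ratio 0.916 [0.854, 0.982]) and lay within 1.5-fold of the other classes in at least 1 library in every class. The replication list and the mitotic members had opposite directions in LP-like cells, 0.571 against 2.23, and the same direction in neural crest-like cells, 1.34 against 1.67.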
